A study of Mus musculus with 2 samples.

Results

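The T cell receptor complex and the enzymes and adaptors that act just below it were examined in splenic regulatory T cells (Tregs), the CD4+ Foxp3+ T cells that restrain immune responses. The set was chosen by gene name, with earlier results of these data known. It holds 38 genes for receptor chains, co-receptors, kinases, phosphatases, adaptors, exchange factors, inhibitors and NFAT transcription factors. Every probe set that the platform annotation assigns to exactly 1 of them was used. A total of 37 of the 38 genes, represented by 91 probe sets, were found among 18201 genes with such a probe set. Lck, a kinase of this pathway, lacked such a probe set and is not analysed here.

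There was 1 Affymetrix 3′ expression array of biotin-labelled RNA from Tregs of mice that carry a dominant negative form of TGF-beta receptor II (DNR), and 1 from Tregs of wild-type (WT) mice. Both came from spleens of 10-week-old naive animals on the C57BL/6 background, sorted by flow cytometry. Not given in the sources used here are the promoter that drives the dominant negative receptor, the number of mice behind each RNA and the way Foxp3 was detected for the sort. The comparison asks how Treg transcripts differ when TGF-beta signalling is disturbed by this receptor. With 1 array per genotype every value below is that of these RNA samples, with no replicate check, no p-value and no error between mice.

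When the T cell receptor meets peptide bound to an MHC molecule, the kinases Lck and Fyn phosphorylate the CD3 chains, ZAP-70 binds to them, and ZAP-70 in turn phosphorylates the adaptors LAT and SLP-76. The assembled adaptors bring in phospholipase C-gamma, Ras exchange factors and VAV, from which calcium and NFAT, the MAP kinases and, through protein kinase C-theta and the BCL10 and MALT1 proteins, NF-kappaB are activated. Phosphatases, ubiquitin ligases and diacylglycerol kinases hold the response in check. Tregs need receptor signals for their suppressive function, and TGF-beta is known to restrain receptor-driven activation of T cells.

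The values are MAS5 signal intensities on a linear scale. The higher array median over all 45037 probe sets that are not controls served as a floor to which lower values were set. It was that of the DNR array, a signal of 110.9. The WT median was 91.0, so more probe sets exceeded the floor on the DNR array. The brightest probe set stands for its gene, and a gene counts as measured when this probe set exceeded the floor on at least 1 array. Ratios are log2 of DNR over WT, and a difference counted as a call when it reached 2-fold. As a yardstick for the noise of a single probe set, the log2 ratios of the brightest and second brightest probe sets of the same gene gave a robust SD of 0.36 per probe set over 3968 genes. Variation between mice, sorts and hybridisations is not part of that SD.

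Markers of the labelled cell type were present: Foxp3 (4549.5 on the DNR and 3754 on the WT array), Il2ra, Ctla4 and Ikzf2 were all above the floor on both arrays. Of the 8 macrophage markers looked at, 7 were measured and all 7 were lower on the DNR array, with a median log2 ratio of -0.57 and summed signals over the 8 of 3446 on the DNR and 4861 on the WT array. Their defining genes C1qa (329.9 and 788), Csf1r (1449 and 1799) and Adgre1 (252 and 275) were above the floor on both. C1qb of the same list was nearly equal (641 and 652). The CD8 T and NK cell markers summed to 1347 and 1239, with Cd8a at 198 and 148, and Cd8b1 at 171 and 294. The defining B cell gene Cd79a, the dendritic cell genes Zbtb46 and Xcr1, the neutrophil gene S100a9 and the erythroid genes Alas2 and Slc4a1 were below the floor on both arrays. Cd79b of the B cell list (869 and 666) and Elane of the neutrophil list (173 and 238) were above it on both. Ms4a1 of B cells exceeded it only on the WT array, and Ncr1 of NK cells, Siglech of plasmacytoid dendritic cells and the neutrophil genes S100a8 and Ngp exceeded it only on the DNR array. All 18 bacterial spike-in probe sets gave brighter signals on the DNR array (median 1.95-fold). In these bulk samples fewer cells of a type and less RNA per cell cannot be told apart.

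Most members of the receptor machinery gave similar signals on both arrays, as did most genes. All 37 genes were above the floor on both arrays, and 35 of them differed by less than 2-fold. Malt1 passed 2-fold with a higher signal in DNR Tregs and Sos1 with a lower one. That share of 5.41% lies beside 6.93% over all 11931 measured genes and 5.83% over the 9282 above the floor on both arrays, so the share of members past 2-fold was near the background. By direction, Malt1 and Sos1 stand beside 3.05% of those 9282 genes that were higher and 2.78% that were lower. At 1.5-fold 5 members passed (13.5%), against 22.7% of all measured genes, which include genes above the floor on 1 array only.

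Small differences leaned toward lower signals in DNR Tregs. Of the 37 genes 26 were lower and 11 higher, with a median log2 ratio of -0.17 and a middle range from the first to the third quartile of -0.37 to 0.10. Over all measured genes 48.6% were lower, 51.4% were higher and the median was 0.01. Over those above the floor on both arrays, as all members were, 53.4% were lower and the median was -0.03. This lean depended on which probe set stands for a gene. With the median over all measured probe sets of a gene, 20 members were lower and 17 higher, with a median of -0.0497 against 0.02 over all genes. Without probe sets not specific to 1 transcript, 22 of the 33 members left were lower and 11 higher. Their median was then -0.0891, against 0.002 over all genes.

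**Figure D1:**
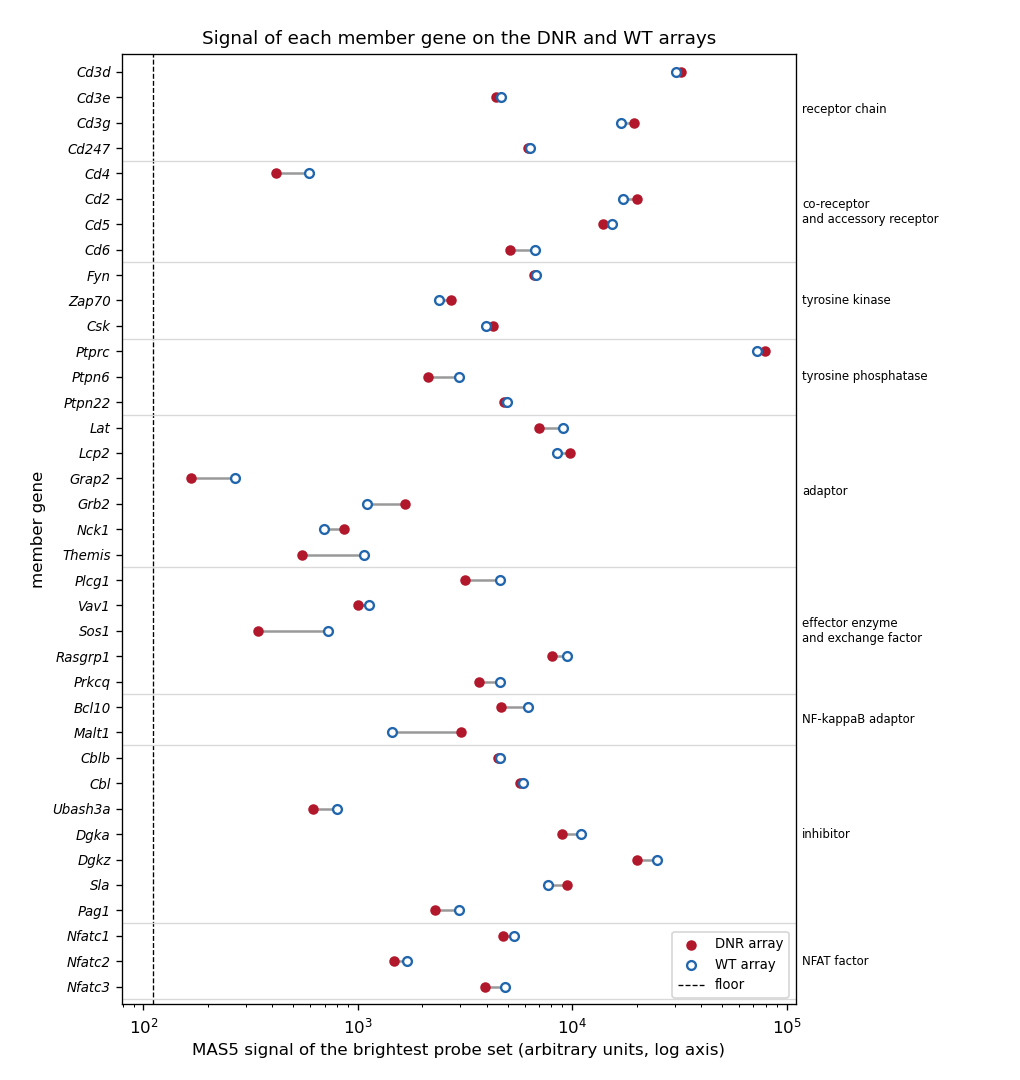
MAS5 signal of the brightest probe set of each of the 37 member genes (horizontal log axis, arbitrary units) on the DNR array (filled red) and the WT array (open blue), in order of role, with the floor as a dashed line. Most pairs of points nearly coincide; the longest gaps belong to Sos1, Malt1 and Themis. Levels of different genes come from different probes and are not comparable.

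The receptor chains that carry the signal into the cell had nearly equal signals. Cd3d, Cd3e and Cd3g encode the delta, epsilon and gamma chains of CD3, and Cd247 the zeta chain with its repeated activation motifs. The signal of Cd3d was 31996 in DNR and 30370.3 in WT Tregs, a log2 ratio of 0.08. Cd3e had 4388 against 4668 (-0.09) and Cd3g 19441 against 16858 (0.21). Cd247 had 6222 against 6373 (-0.03) with its brightest probe set, and 2 others that exceeded the floor on both arrays were at 0.22 each. All 4 chains thus differed by less than 1.2-fold, as did 48.6% of the 37 members and 45.1% of all measured genes. Each ratio was smaller than the robust SD of a single probe set.

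Cd3g, Cd3d and Cd3e are neighbours on chromosome 9, and Cd3g and Cd3d start 1355 bases apart on opposite strands. Their promoters are shown because these 3 linked genes kept like signals, and because the lower members Themis and Sos1 are set beside them further on. Each line gives the 250 bases before the annotated start, 5′ to 3′ on the gene's own strand, from RefSeq on build GRCm38.p6. Capitals mark GGAA, the core bound by ETS factors (which lies within GGAAA, an NFAT core), and CAGAC, a SMAD box, on either strand. Cd3g lies at chr9:44980432-44980681 (minus strand), Cd3d at chr9:44981536-44981785 (plus strand) and Cd3e at chr9:45009612-45009861 (minus strand).
Cd3g: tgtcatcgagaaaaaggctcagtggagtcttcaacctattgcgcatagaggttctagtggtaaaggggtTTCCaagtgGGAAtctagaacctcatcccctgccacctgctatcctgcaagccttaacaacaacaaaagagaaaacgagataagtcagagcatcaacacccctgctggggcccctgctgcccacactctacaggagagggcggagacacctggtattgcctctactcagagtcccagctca
Cd3d: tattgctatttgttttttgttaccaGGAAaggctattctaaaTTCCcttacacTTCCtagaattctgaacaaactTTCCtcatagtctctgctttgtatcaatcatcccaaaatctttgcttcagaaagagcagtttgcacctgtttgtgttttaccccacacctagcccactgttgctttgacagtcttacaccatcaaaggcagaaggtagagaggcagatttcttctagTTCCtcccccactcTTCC
Cd3e: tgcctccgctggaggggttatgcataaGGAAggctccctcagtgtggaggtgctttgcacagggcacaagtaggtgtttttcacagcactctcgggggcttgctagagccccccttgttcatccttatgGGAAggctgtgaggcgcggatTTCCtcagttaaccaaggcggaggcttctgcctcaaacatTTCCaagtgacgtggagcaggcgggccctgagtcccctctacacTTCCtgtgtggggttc
GGAA was found 2 times in Cd3g, 6 times in Cd3d and 5 times in Cd3e, where 93.4% of all 32851 promoters of this length in the table hold at least 1 match and the median is 3. CAGAC was found in none of the 3, while 42.2% of all promoters hold it. GGAAA was present 1, 2 and 2 times and occurs in 55.6% of all promoters. These short matches describe the letters only.

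The co-receptor and the accessory receptors on the cell surface were more varied. Cd4, the co-receptor that binds MHC class II and defines the sorted population, had 415 in DNR and 595 in WT Tregs, with a log2 ratio of -0.52. Its second probe set had 90.2 against 129.8, above the floor only on the WT array. Both probe sets were lower on the DNR array. Cd2, an adhesion receptor that adds to the receptor signal, had 19940.2 against 17298 (0.21). Cd5, a scavenger receptor family member that dampens receptor signalling and whose level tracks its strength, had 13916 against 15276 (-0.13). Cd6, its relative encoded next to it, had 5135 against 6693 (-0.38), by a probe set not specific to 1 transcript.

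The tyrosine kinases were close to equal. Fyn, a Src family kinase that phosphorylates the CD3 chains, had 6645 against 6804 and its second probe set 3299 against 3473, ratios of -0.03 and -0.07. Csk, which restrains Src family kinases by phosphorylating their tail, had 4281 against 3981 (0.10). Zap70, the kinase that docks on phosphorylated CD3 and zeta chains, had 2732 against 2383 (0.20). Its other probe sets disagreed: one not specific to 1 transcript had 2707 against 1524 (0.83), and a dim one had 69.2 against 209.8, above the floor only on the WT array, with a bound of -0.92. The spread between the probe sets of Zap70 is thus wider than the difference of any one of them.

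Among the phosphatases Ptpn6 stood lower on the DNR array with both of its probe sets. Ptpn6 encodes SHP-1, which removes phosphates from proximal kinases and adaptors. Its signals were 2127 in DNR and 2975 in WT Tregs (-0.48), and 1290.1 against 1999.9 (-0.63) with a probe set not specific to 1 transcript. Macrophages, which also express this gene, had lower markers on the DNR array (7 of 7 measured, median -0.57), though C1qb was nearly equal (641 and 652). Markers of other cells went both ways. The neutrophil genes S100a8 (285 and 47) and Ngp (287 and 38) and the B cell gene Cd79b (869 and 666) were higher on the DNR array. Elane of neutrophils (173 and 238) and Ms4a1 of B cells (76 and 126) were lower. The part of any of these cells in the Ptpn6 values was not tested. Ptprc, which encodes CD45 and activates Src family kinases, had 79247 against 72451 (0.13) and, with its second probe set, 1159.6 against 913 (0.35). Ptpn22, a phosphatase that acts with Csk on Lck and Fyn, had 4789 against 4957 (-0.05).

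The adaptors went both ways. Lat, the membrane scaffold of the signalosome, had 6989 in DNR and 9021 in WT Tregs, a ratio of -0.37 by its only probe set. Lcp2, which encodes SLP-76, the partner scaffold of LAT, had 9726 against 8465 and a second probe set of 1233 against 856, ratios of 0.20 and 0.53. Both probe sets of Lcp2 were higher on the DNR array, while that of Lat was lower. Grap2, which encodes GADS, the link between the 2 scaffolds, had a dim 166 against 269 (-0.69), and its other probe set was below the floor on both arrays. Nck1, an adaptor to the actin cytoskeleton, had 863 against 695 (0.31), with other probe sets at 0.59 and -0.05.

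Grb2, which couples LAT to the Ras exchange factor SOS, had probe sets that contradicted each other. The brightest had 1664 on the DNR and 1105 on the WT array (0.59), and the second 1036 against 1505 (-0.54). Neither is specific to 1 transcript, so no direction is given for Grb2.

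Themis had the largest difference among the adaptors. Themis, a T cell specific protein that tunes receptor signals through SHP-1, had 548 in DNR and 1067 in WT Tregs with its brightest probe set, 1.95-fold lower with a log2 ratio of -0.96. A second probe set had 169 against 178 (-0.07), another 115 against 79.6, above the floor only on the DNR array (0.05), and the last was below the floor on both. The difference was thus carried by 1 of 4 probe sets, and the median over those above the floor was -0.07. The Themis promoter at chr10:28668110-28668359 (plus strand) is the first of 2 starts in the table, 35 bases apart.
Themis: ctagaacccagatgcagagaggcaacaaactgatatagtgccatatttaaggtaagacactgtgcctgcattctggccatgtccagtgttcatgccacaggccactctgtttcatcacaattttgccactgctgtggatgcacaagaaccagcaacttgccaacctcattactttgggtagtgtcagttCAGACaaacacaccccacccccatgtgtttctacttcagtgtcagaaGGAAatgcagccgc
It holds 1 match of GGAA, which is also a GGAAA, and 1 of CAGAC, present in 42.2% of all promoters.

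**Figure D2:**
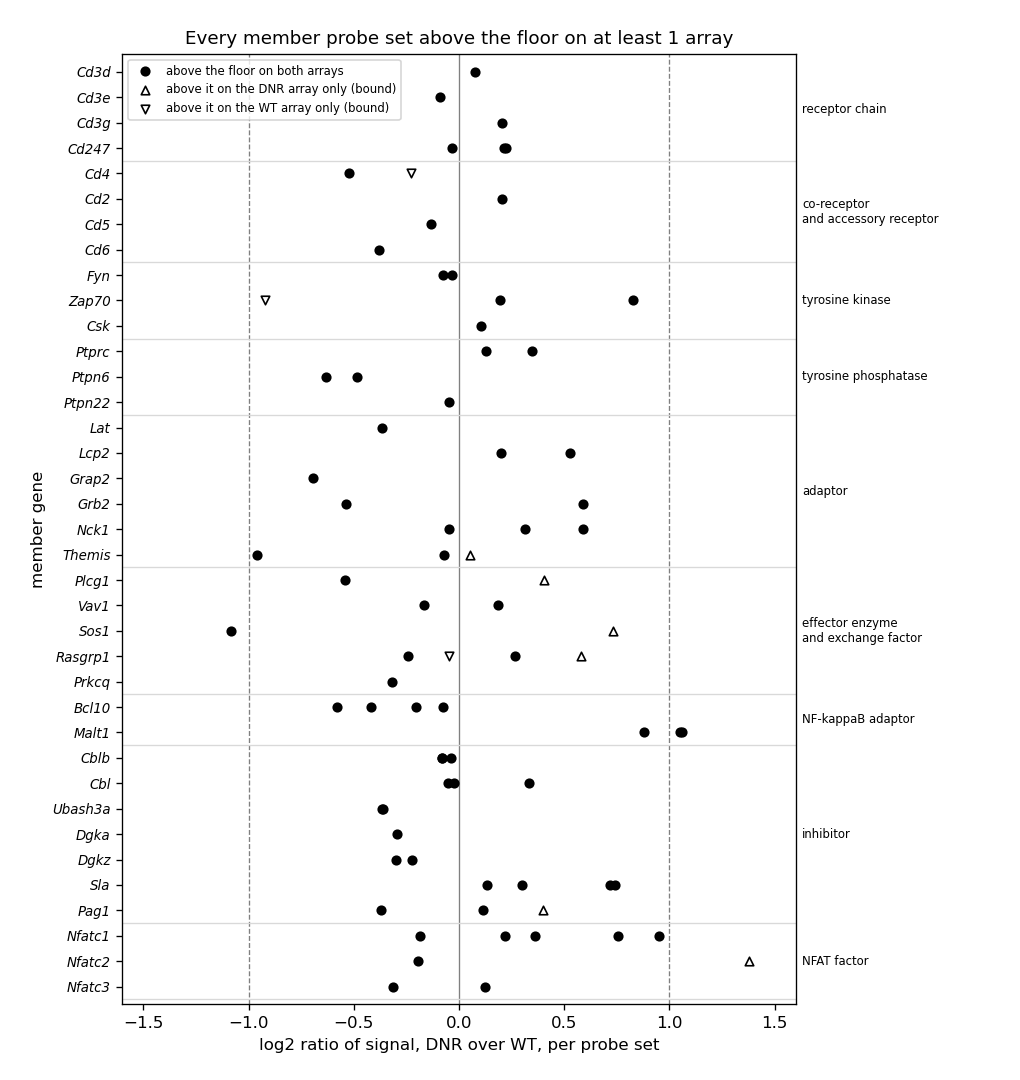
Log2 ratio of DNR over WT signal (horizontal axis) for each of the 79 member probe sets above the floor on at least 1 array, by gene and role; filled circles were above the floor on both arrays, open triangles on 1 array only and mark a bound, and dashed lines mark 2-fold. The 3 probe sets of Malt1 lie together near the upper line, all 4 of Bcl10 lie below 0, and those of Grb2, Sos1, Zap70 and Nfatc1 lie far apart.

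All 5 effector enzymes and exchange factors gave lower signals in DNR Tregs by their brightest probe sets, with a median log2 ratio of -0.32. Of all genes above the floor on both arrays 53.4% were lower. Sos1, a guanine nucleotide exchange factor that loads Ras with GTP, was the only member lower by at least 2-fold. It had 342 in DNR and 724 in WT Tregs with its brightest probe set, a 2.12-fold lower signal (-1.08). Its second probe set went the other way, with 184 against 93.6, above the floor only on the DNR array and at least 1.66-fold higher. The other 3 were below the floor on both arrays, and the median over the measured probe sets was -0.18. The call on Sos1 rests on 1 probe set.

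The Sos1 promoter lies at chr17:80480454-80480703 (minus strand) and has a GC content of 70.4%, against a median of 52.4% over all promoters in the table. It holds 1 match of GGAA, as part of GGAAA, and none of CAGAC.
Sos1: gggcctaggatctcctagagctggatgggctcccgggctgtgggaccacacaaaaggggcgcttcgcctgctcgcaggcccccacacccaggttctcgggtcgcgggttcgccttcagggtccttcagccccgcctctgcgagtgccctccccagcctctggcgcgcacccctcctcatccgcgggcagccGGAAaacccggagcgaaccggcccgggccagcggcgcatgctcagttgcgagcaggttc

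Plcg1, the phospholipase that makes inositol trisphosphate and diacylglycerol, had 3168 in DNR and 4615 in WT Tregs, a ratio of -0.54. A second, dim probe set had 147 against 75.04, above the floor only on the DNR array. Rasgrp1, the diacylglycerol-dependent Ras exchange factor of T cells, had 8007 against 9478 (-0.24), but a dimmer probe set had 426 against 354 (0.27). Prkcq, which encodes protein kinase C-theta, had 3688 against 4593 (-0.32) with its only probe set, which is not specific to 1 transcript. Vav1, an exchange factor that acts on the actin cytoskeleton, had 1006 against 1131 (-0.17) and, with a second probe set, 667 against 587 (0.19). Only Prkcq among the 5 had no probe set with a higher signal on the DNR array, and it has 1 probe set only. The higher signals of Sos1 and Plcg1 came from dim probe sets above the floor on the DNR array only. More probe sets exceeded the floor on that array in general.

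The partners of the NF-kappaB branch went opposite ways. Malt1, a paracaspase that cleaves its substrates once BCL10 filaments recruit it, was the only member higher by at least 2-fold. It had 3018 in DNR and 1447 in WT Tregs with its brightest probe set, a 2.09-fold higher signal and a log2 ratio of 1.06. The other probe sets had 2346 against 1276 (0.88) and 409 against 197 (1.05), so all 3 of Malt1 were higher by between 1.84-fold and 2.09-fold. All 3 are of the kind specific to 1 transcript. The ratio of Malt1 lay between 1.05 and 1.10 under the 8 ways of processing compared here. The other floors and the omission of probe sets not specific to 1 transcript could not change it. Its signals exceeded every floor tried, and none of its probe sets was left out.

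Bcl10, the adaptor that links protein kinase C-theta to MALT1, was lower on the DNR array with all 4 of its probe sets. Its signals were 4632 in DNR and 6191 in WT Tregs (-0.42), 3841 against 4044 (-0.07), 2072 against 2391 (-0.21) and 689.7 against 1033 (-0.58). Of these log2 ratios, -0.07 and -0.21 were smaller than the robust SD of a single probe set. Only the probe set at -0.58 is of the kind specific to 1 transcript. Probe sets of 1 gene share the same arrays and are not replicates of the genotype.

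**Figure D3:**
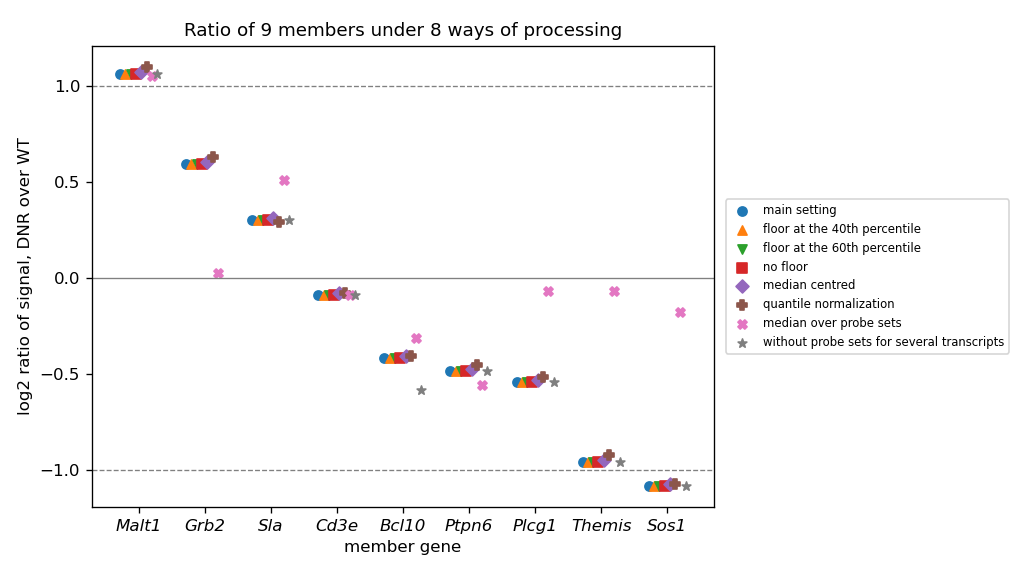
Log2 ratio of DNR over WT signal (vertical axis) of 9 members under 8 ways of processing (symbols), with dashed lines at 2-fold. Malt1 stays above the upper line under all 8, between 1.05 and 1.10, while Sos1, Themis and Plcg1 move toward 0 when the median over their probe sets is taken. Grb2 has no value without probe sets not specific to 1 transcript. The other floors could not change the values shown, since the brightest signals of these genes exceeded every floor tried.

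The inhibitors were lower in 6 of 7 cases by their brightest probe sets, by small amounts, with a median log2 ratio of -0.30. Among all genes above the floor on both arrays 53.4% were lower. Cblb and Cbl, the ubiquitin ligases that mark receptor components for degradation, were nearly equal. Cblb had 4509.9 against 4627 (-0.04), and its other probe sets lay at -0.08 each. Cbl had 5696 against 5901 (-0.05), with its other probe sets at 0.33 and -0.02. The diacylglycerol kinases, which remove the lipid that activates RASGRP1 and protein kinase C-theta, had like ratios. Dgka had 8952 in DNR and 10986.5 in WT Tregs (-0.30), and Dgkz had 20096 against 24739 (-0.30) with a second probe set at -0.22.

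Ubash3a, a phosphatase-like suppressor of receptor signalling, had 621 against 799 and, with its second probe set, 435 against 560.3. Both ratios were close, at -0.36 and -0.37. Pag1, the membrane anchor of Csk, had 2279 against 2949.9 (-0.37), while a dim probe set had 212 against 196 (0.11). Sla, which encodes the Src-like adaptor that promotes loss of receptor chains, was the inhibitor with a higher signal. Its brightest probe set had 9471 in DNR and 7700.5 in WT Tregs (0.30). The other 3 had 1822 against 1107 (0.72), 657 against 393 (0.74) and 446 against 407 (0.13), so all 4 probe sets of Sla were higher, by less than 2-fold.

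The NFAT factors, which enter the nucleus when calcineurin removes their phosphates, gave different answers by probe set. Nfatc1 had 4731 in DNR and 5376 in WT Tregs with its brightest probe set (-0.18), but its other 4 were all higher, at 0.22, 0.95, 0.76 and 0.36. The second of these values, 956 against 495, was just below 2-fold (1.93-fold). Nfatc2 had 1478 against 1693 (-0.20), while a dim probe set had 288 against 59.8, above the floor only on the DNR array and at least 2.60-fold higher. The other 4 of Nfatc2 were below the floor on both arrays. Nfatc3 had 3926 against 4884 (-0.32), with a second probe set of 1562 against 1436 (0.12). Each of the 3 genes thus had at least 1 probe set on either side of 0.

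Counting probe sets in place of genes gave a similar picture. Of the 91 probe sets 70 were above the floor on both arrays, 9 on 1 array and 12 on neither. At least 2-fold different were 4 of the 79 above it on at least 1 array (5.06%): 2 of Malt1 and 1 of Nfatc2, which were higher, and 1 of Sos1, which was lower. Over all such probe sets with a single gene the share was 7.23%. Of the 21 members for which 2 or more probe sets exceeded the floor on both arrays, 12 (57.1%) had them all on the same side of 0, against 45.8% of all 3968 such genes. These were Malt1, Sla, Lcp2, Ptprc and Zap70 on the higher side, and Bcl10, Cblb, Dgkz, Fyn, Ptpn6, Themis and Ubash3a on the lower side. The median size of the difference between the 2 brightest probe sets was 0.34 for the members and 0.35 for all genes.

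**Figure D4:**
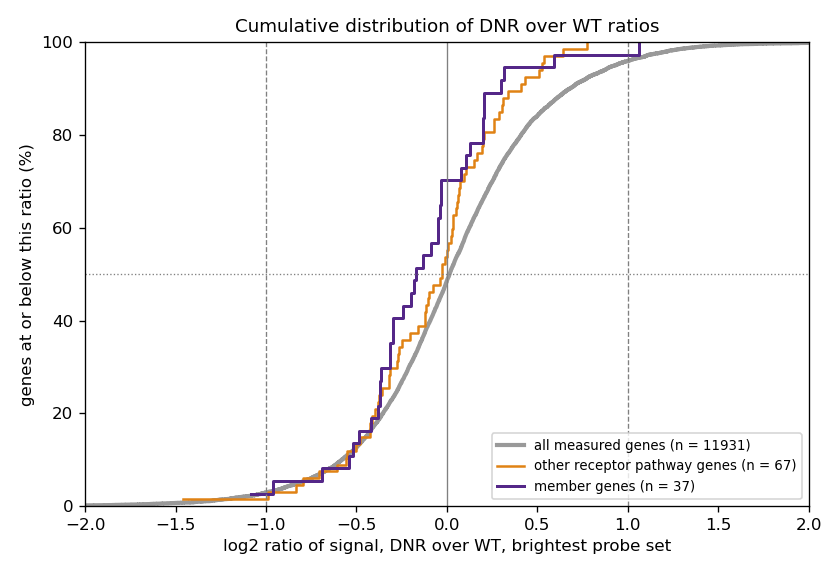
Cumulative share of genes (vertical axis, percent) at or below each log2 ratio of DNR over WT signal (horizontal axis) for the 37 member genes, 67 other genes of the receptor pathway and all 11931 measured genes; dashed lines mark 2-fold. The member curve reaches 70.3% at 0, above the 48.6% of all genes.

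The wider pathway was described by a list of 85 other genes, of which 69 had a probe set assigned to a single gene and 67 were measured. Of these 31 were higher and 36 lower, with a median log2 ratio of -0.03. By the brightest probe sets no gene was higher by at least 2-fold and 1 was lower, against 6.93% of all measured genes in either direction. That gene was Rcan1, a calcineurin inhibitor that NFAT itself induces, with 158 on the DNR and 434 on the WT array, 2.74-fold lower and near the floor. Its probe set is not specific to 1 transcript.

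By the brightest probe sets, the 3 next largest differences in the list were lower on the DNR array, and those after them were not all so. Dok1 and Dok2, adaptors that restrain Ras, were higher, with 696 against 407 (0.77) and 1634 against 1047 (0.64), and are named after their values were seen. Vav3, a relative of Vav1, had 499 against 990.2 (-0.99), but a second probe set was at -0.15. Ppp3r1, the regulatory subunit of calcineurin, had 969.9 against 1729 (-0.83), with another at 0.27. Pik3r1, the regulatory subunit of class I phosphoinositide 3-kinase, had 1503 against 2609 (-0.80), and all 4 of its probe sets that exceeded the floor on both arrays were lower, between -0.82 and -0.41. The genes of the T cell receptor constant regions were not analysed here, for want of a probe set assigned to a single gene; Tcra was below the floor on both arrays.

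Genes that receptor signals can switch on were also described. Whether receptor signals set their levels in these samples was not tested. Of 11 such genes, all measured, 6 were higher and 5 lower, the median log2 ratio was 0.05, and by the brightest probe sets none reached 2-fold in either direction, against 6.93% of all measured genes. The largest differences, named after their values were seen, were in Tnfrsf9, the co-stimulatory receptor 4-1BB, with 3089.8 against 1604 (0.95), and Nr4a1, the nuclear receptor Nur77, with 14195 against 23593 (-0.73). The second probe set of Tnfrsf9 did pass 2-fold, with a log2 ratio of 1.33. Nr4a2, a relative of Nr4a1, went the other way with 15523 against 10139 (0.61), and its 4 probe sets that exceeded the floor on both arrays lay between 0.61 and 0.97.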

How the data were processed

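The authors deposited MAS5 signal intensities, 1 for each probe set of an array, on a linear scale, per the submitters' processing notes; not given in the sources used here are the version, the scaling and the genome build. With the highest and lowest 2% left out, both deposited columns had a mean intensity of 500.0. Of 45101 probe sets 64 controls were set aside; 34957 of the rest had exactly 1 gene in the platform annotation, 920 several, and 9160 were not listed. The floor was the higher array median (50th percentile), and lower values were raised to it ahead of the log2 step. Promoter entries were found for 31 members outside chromosome 18.

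With 1 array per genotype no test was made and no interval is given. Precision is limited by having 1 array each. The members and gene lists were chosen with earlier results of these data known. Named are all members, the pathway genes at least 2-fold different or the 4 with the largest differences above the floor on both arrays, activation genes at least 2-fold different, and the defining cell type markers. Genes outside this rule were named after their values were seen. That is stated beside Tnfrsf9, Nr4a1, Dok1 and Dok2 and also holds for Nr4a2, Cd79b, Elane, C1qb, Itpr2, Nfat5 and Gsk3b. The procedure was tested on simulated data. Alternatives were other floors, other scalings, the median over probe sets, leaving out probe sets named _s_at, _x_at or _a_at, which are not specific to 1 transcript, and other thresholds. Computations used Python 3.11.15, numpy 2.4.6 and pandas 2.3.3.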

Additional observations from a re-analysis of the deposited data

How the results depend on the processing

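The number of members at least 2-fold different was 2 with every other floor or scaling and without probe sets not specific to 1 transcript. Their share was 5.41% with each other floor, while that of all measured genes was 11.2% with the 40th percentile floor, 5.01% with the 60th and 34.5% without one. The number was 1 (Malt1, 2.70%, against 5.33% of all measured genes) with the median over probe sets. It was 5 at 1.5-fold (13.5%, against 22.7%) and 0 at 3-fold (against 0.997%). The number of member probe sets was 4 in the main setting and 11 with no floor (12.1%, against 37.5% of all probe sets with 1 gene). It was 17 at 1.5-fold (21.5%, against 24.5%) and 0 at 3-fold. For the other pathway genes it was 1 in the main setting, 2 with a 40th percentile floor, 5 when none was set, 8 at 1.5-fold and 0 at 3-fold. The single gene called without probe sets not specific to 1 transcript was Nfat5, not Rcan1. The median log2 ratio of the members moved from -0.17 to -0.0497 with the median over probe sets and to -0.0891 without probe sets not specific to 1 transcript; that of the other pathway genes moved from -0.03 to 0.0303 and to -0.0789. Of 255 values of single members under the alternatives, 248 stayed within the robust SD of a probe set from the main value, and the other 7, all from the median over probe sets, belonged to Grb2, Themis, Plcg1, Sos1, Pag1, Nfatc1 and Nfatc2. The last 3 of these changed sign, to 0.11, 0.36 and 0.59. Cd247, Rasgrp1 and Vav1 also changed sign in at least 1 alternative, by less than that SD. Many of the 248 values could not move. All 37 brightest probe sets exceeded the main floor on both arrays, so the 40th percentile floor and no floor returned the same ratios. The 60th percentile floor changed only Grap2. A member with 1 measured probe set also kept its value with the median over probe sets. Without probe sets not specific to 1 transcript 33 members were left, since Cd6, Grb2, Prkcq and Nfatc3 have no others. No scaling moved the median of all genes by more than 0.02. Signals near the floor limit the ratios of Grap2 and of the dim probe sets of Cd4, Sos1, Themis, Plcg1 and Nfatc2. The brightest probe sets of Cd4 and Sos1 also had low signals, though no floor changed their ratios.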
